A study of Mus musculus with 12 samples.

Results

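The genes described here are 34 cell cycle genes, out of 24023 genes with an expression value in mouse liver. They were taken from a fixed list of names and cover proliferation markers, cyclins, cyclin-dependent kinases (CDKs) and their inhibitors, the MCM helicase, the replication clamp and nucleotide synthesis enzymes, mitotic kinases and checkpoint proteins, and transcription factors of the E2F and Fox families. All 34 of the 34 were found in the expression table. The level of a gene is its FPKM, a count of fragments scaled by transcript length and by sequencing depth, summed over the transcripts of the gene.

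The study asked how vertical sleeve gastrectomy (VSG), an operation that removes most of the stomach, changes chromatin and gene expression in the liver of obese mice. All animals were C57BL/6J males, and 2 mice were sequenced in each of 3 groups. Sham and VSG mice started a high-fat diet (60 kcal% fat) at 8 weeks of age, were operated on after 14 weeks, took a liquid diet for 4 days and then stayed on the high-fat diet until 14 weeks after the operation. VSG mice lost about 80% of the stomach, and in Sham mice the stomach was exposed and pressed with forceps but not resected. Control mice ate standard chow for 28 weeks and had no operation, so that diet and surgery cannot be told apart between Control and either operated group. Sequencing of RNA and of open chromatin by FAIRE (Formaldehyde Isolation of Regulatory Elements, which recovers DNA free of nucleosomes) used the same livers. The adult liver is a largely quiescent organ, and its 6 hepatocyte markers examined here summed to between 15700 and 22200 FPKM in every mouse.

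A dividing cell copies its DNA in S phase and separates the copies in mitosis. Passage from G1 into S phase is driven by cyclin D and cyclin E with their CDKs, which release E2F transcription factors from the retinoblastoma proteins. E2F then turns on genes for replication, among them the MCM genes. Genes for mitosis are turned on later by the MuvB and B-Myb complex and by FoxM1, through promoter elements called CHR. Such promoters often hold elements called CCAAT boxes as well. Hepatocytes rest outside the cycle but re-enter it after loss of liver tissue, and they often hold several copies of the genome.

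The genes of mitosis were near the lower end of what these libraries could measure. The mean FPKM over the 6 mice was under 1 for 15 of the 34 genes, and 14 of these 15 were under 1 in every mouse. Those 14 were Mki67, Top2a, Ccnb1, Ccnb2, Ccne2, Cdk1, Mcm5, Bub1, Bub1b, Plk1, Aurka, Aurkb, Cdc20 and Foxm1. Birc5, which encodes survivin of the chromosomal passenger complex, was the remaining gene of the 15, with a mean of 0.789 FPKM and a highest value of 1.65 FPKM in Sham mouse 1. At the other end, 10 genes were at 1 FPKM or more in every mouse: Ccnd1, Cdk2, Cdkn1a, Cdkn1b, Cdkn2c, Mcm7, Pcna, Rrm1, Tyms and E2f8. The 12 mitotic genes together (Mki67, Top2a, Ccnb1, Ccnb2, Cdk1, Bub1, Bub1b, Plk1, Aurka, Aurkb, Cdc20 and Birc5) summed to 2.34 and 1.54 FPKM in Control, 5.18 and 1.89 FPKM in Sham and 2.85 and 2.32 FPKM in VSG mice, so the groups overlapped and Sham mouse 1 stood highest.

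**Figure D1:**
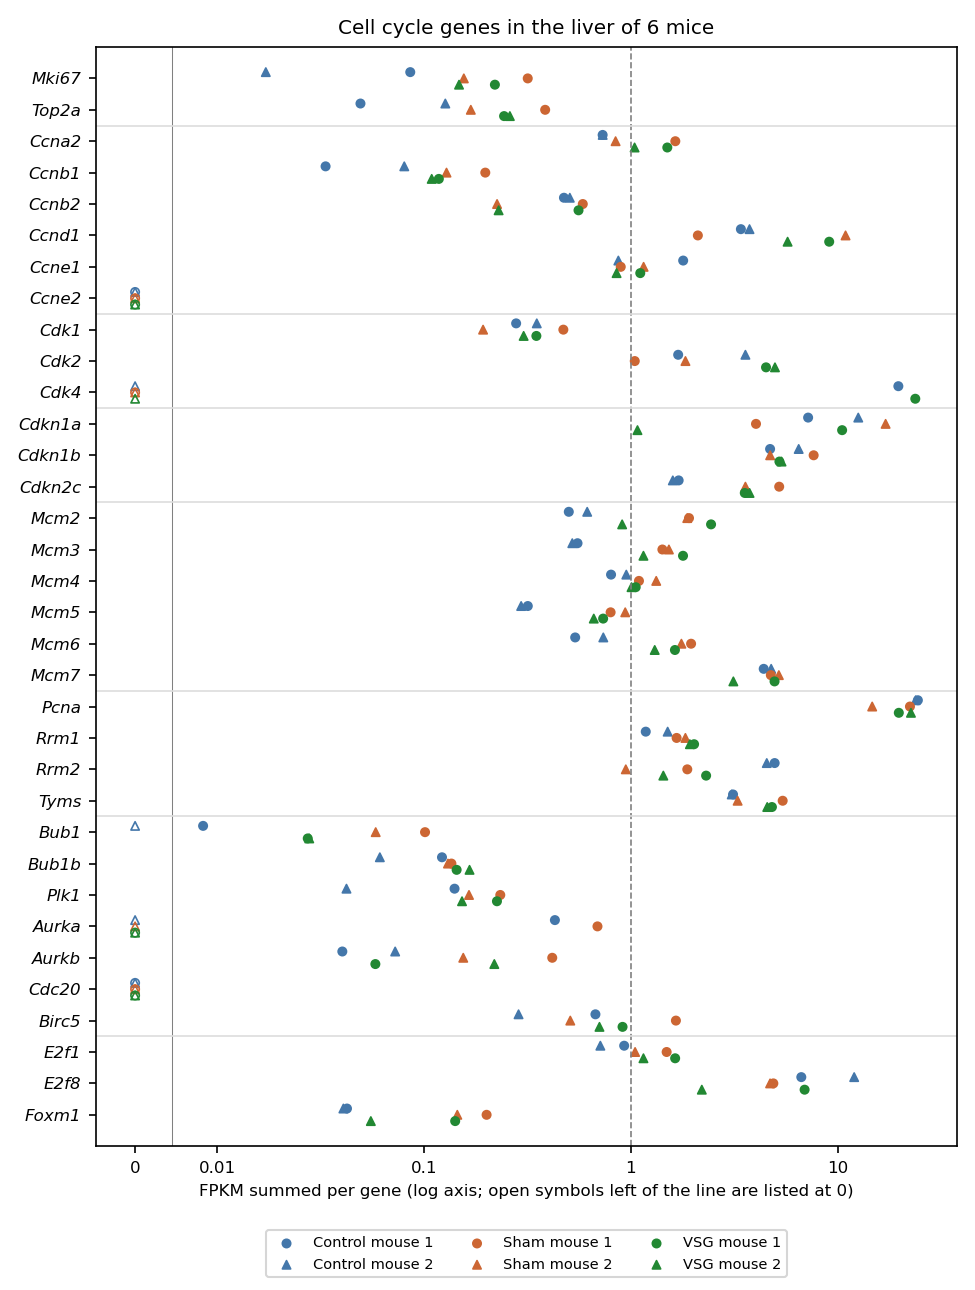
FPKM of each of the 34 cell cycle genes in each mouse, on a log axis, ordered by role, with circles for mouse 1 and triangles for mouse 2 of a group. Open symbols on the left are values listed at 0, the dashed line marks 1 FPKM, and the mitotic kinases and checkpoint genes lie to its left except Birc5 in Sham mouse 1.

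Few reads stood behind the lowest values. The spacing of the low FPKM values gave an approximate depth of 25900000 and 21600000 fragments in the Control, 17300000 and 30100000 in the Sham and 40000000 and 24000000 in the VSG mice. Bub1, a kinase of the spindle checkpoint, had a mean of 0.0372 FPKM, which came to between 0 and about 6.0 reads a mouse. Mki67, the antigen that marks cycling cells, was at 0.0857 and 0.0171 FPKM in Control, 0.317 and 0.156 FPKM in Sham and 0.220 and 0.147 FPKM in VSG mice. For this long transcript the same values came to about 22.4 and 3.73 reads in Control, 55.2 and 47.1 in Sham and 88.6 and 35.6 in VSG mice. All 4 mice on the high-fat diet were above both Control mice for Mki67, but the Control values rested on few reads and the gene was not tested, since it did not reach 1 FPKM in 2 mice.

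An FPKM of 0 was not the same as absence of RNA. Ccne2 (cyclin E2) and Cdc20, an activator of the anaphase-promoting complex, were listed at 0 FPKM in all 6 mice. For Cdc20 the authors' own mean normalized count was nevertheless 10.3 over Control and Sham mice and 14.1 over Sham and VSG mice. Cdk4, the partner kinase of cyclin D, was listed at 19.7 and 0 FPKM in Control, 0 and 0 FPKM in Sham and 23.7 and 0 FPKM in VSG mice, beside the authors' mean normalized counts of 461 and 541. Apob, which hepatocytes express at a high level, was likewise listed at 0 FPKM in Sham mouse 1 and at 196 to 371 FPKM in the other mice. The zeros of Cdk4 are therefore given as listed, and no change is read from them. Aurka (0.429 and 0, 0.689 and 0, 0 and 0 FPKM in Control, Sham and VSG) and Bub1 were at 0 in some mice.

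For several genes the value may also include reads of a neighbour. Exons overlap those of a gene on the opposite strand for Cdk4 (604 bp with Tspan31, which had a mean of 200 FPKM), Ccnd1 (818 bp with Oraov1), Ccna2 (512 bp with Exosc9), Ccne2 (609 bp with Ints8), Mcm7 (321 bp with Ap4m1 and 64 bp with Cops6, which had a mean of 73.7 FPKM), Tyms (14 bp with Gm17448), E2f8 (274 bp with Gm2788) and Cdc20 (53 bp with Elovl1). Whether reads were counted by strand is not given in the sources used here, so reads of these partners cannot be told apart. The authors' counts and the read estimates made here also lay far apart for Cdkn2c and Ccna2, and the cause was not tested. The authors' mean normalized count of Cdkn2c was 10.2 over Control and Sham mice, where its FPKM came to about 85.1 to 266 reads a mouse, and that of Ccna2 was 19.5, where its FPKM came to about 46.7 to 84.1 reads.

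FAIRE peaks stood at the start sites of barely expressed and of expressed members alike. An authors' FAIRE peak lay within 1000 bp of an annotated start site for 32 of the 34 genes in the Control list and for 34 of 34 in both the Sham and the VSG list. The share of all 18081 genes with such a peak was 54.3% in Control, 54.1% in Sham and 55.8% in VSG. Of the 15 cell cycle genes with a mean under 1 FPKM, 14 had a peak in Control and 15 in Sham and in VSG, beside 25.7%, 25.5% and 27.6% of all genes under 1 FPKM. Of the other 19, 18, 19 and 19 had a peak, beside 91.0%, 90.7% and 91.8% of genes at 1 FPKM or more. The strongest peak covered a start site for 29 of the 32 genes with a peak in Control and for 33 of the 34 in Sham and in VSG, with median widths of 550.5, 508 and 495 bp. Each list pools the 2 mice of a group, so these counts have no replicate and no test. Within 1000 bp of the start sites of 4 genes (Mcm4, Mcm7, Aurka and Foxm1) lay the start site of another gene, and the other 30 had none.

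The peaks at most of these start sites ranked in the upper part of their own lists, at percentile 50 or above for 31 of the 32 genes with a peak in Control. In Sham 32 of the 34 genes reached that percentile, and in VSG 31 did. The strongest peak of a gene was at a median percentile of 86.7 in Control (32 genes), 85.3 in Sham and 86.8 in VSG (34 genes each), counted among all 42204, 52881 and 44539 peaks of these lists. Peak signal was not set on a common scale between the lists, so ranks were compared and signals were not. Pcna, the sliding clamp of DNA polymerase, ranked highest of the 34 genes in all 3 lists, at percentiles of 99.87, 99.89 and 99.91, with its peak over the start site at chr2:132078833-132079260 (mm9) in Control. Mcm5 followed in Sham at 99.56, and Cdk1, with a mean of only 0.324 FPKM, was at 95.88, 95.57 and 93.13.

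Mki67, Ccnd1 and Top2a ranked lower. For Top2a the percentile was 37.7 in the Control list, 50.3 in the Sham list and 43.2 in the VSG list. Neither Mki67 nor Ccnd1 had a peak near the start site in the Control list, and their peaks ranked low in Sham (percentiles 8.01 and 11.27) and in VSG (16.32 and 31.18). The Mki67 peak lay at chr7:142908106-142908279 in Sham and at chr7:142908312-142908488 in VSG (mm9), which do not overlap each other or cover the start site. With the Sham list shortened by signal to the length of the Control list, 32 of the 34 genes had a peak in Sham, as in Control. Ccnd1 (cyclin D1) was expressed in every mouse, at 3.40 and 3.75 FPKM in Control, 2.11 and 10.9 FPKM in Sham and 9.10 and 5.73 FPKM in VSG mice.

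**Figure D2:**
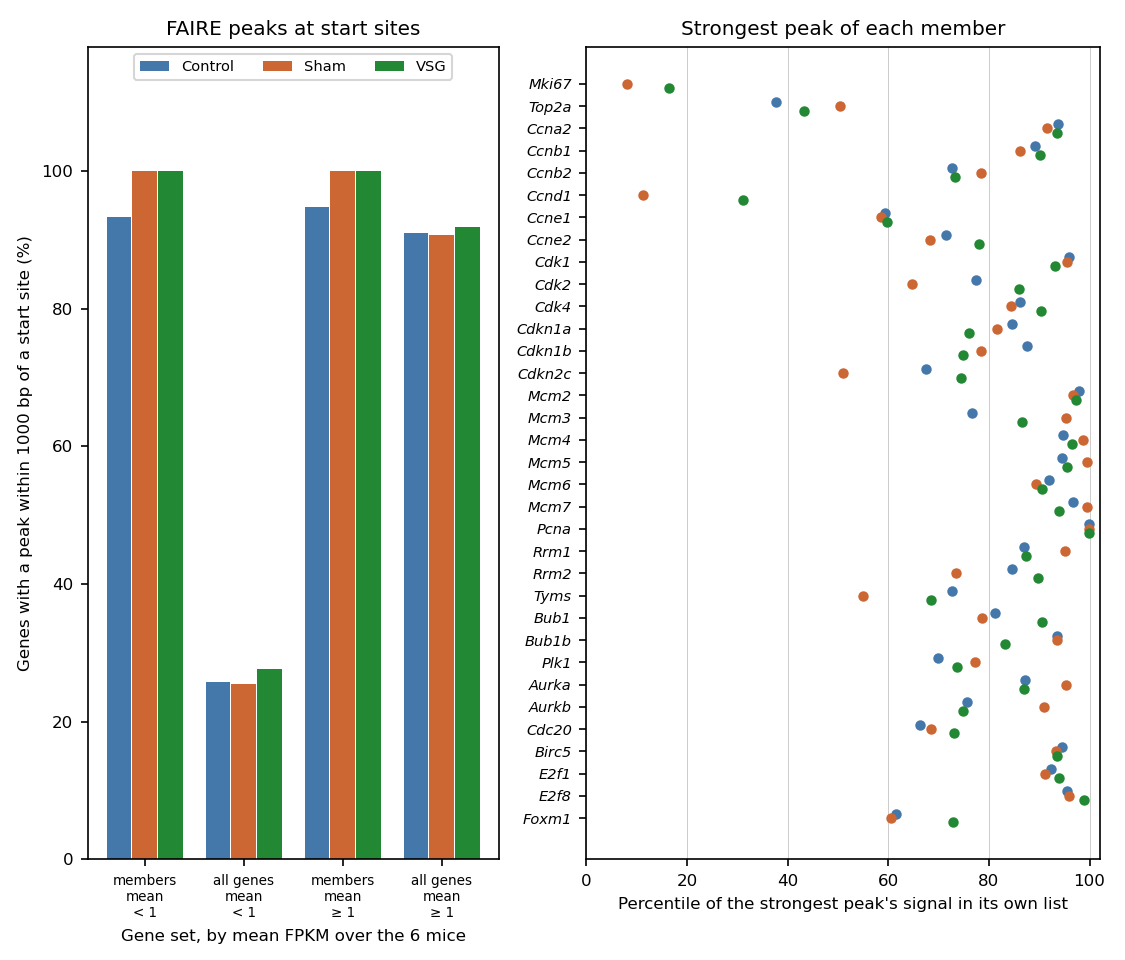
Left, the share of genes with a FAIRE peak within 1000 bp of a start site in each pooled list, for the cell cycle genes and for all genes, split at a mean of 1 FPKM. Right, the percentile of each gene's strongest such peak within its own list, with no point for Mki67 and Ccnd1 in Control and Pcna furthest to the right in all 3.

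The promoters of the replication genes and of the mitotic genes differed in the sequence words they held. RefSeq promoter windows (GRCm38.p6, from 250 bases before to 50 bases after the start) were at hand for 28 of the 34 genes, 31 windows in all, and not for Aurkb, Ccna2, Foxm1, Ccne2, Ccnd1 and Mcm4. E2F words (TTCGCGC, its variant TTGGCGC or the variant TTCCCGC, on either strand) stood in 60.0% of the 10 windows of replication genes, in 27.3% of the 11 windows of mitotic genes and in 8.07% of all 32851 windows. CHR words (TTTGAA or the variant TTCGAA, on either strand) stood in 20.0%, 81.8% and 19.2%. The word CCAAT, on either strand, was found in 90.0% of the replication and 90.9% of the mitotic windows, against 37.4% of all windows. Words can share bases, among them E2F words on opposite strands, and each match is counted. A word is a match of letters, not a site shown to be used.

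**Figure D3:**
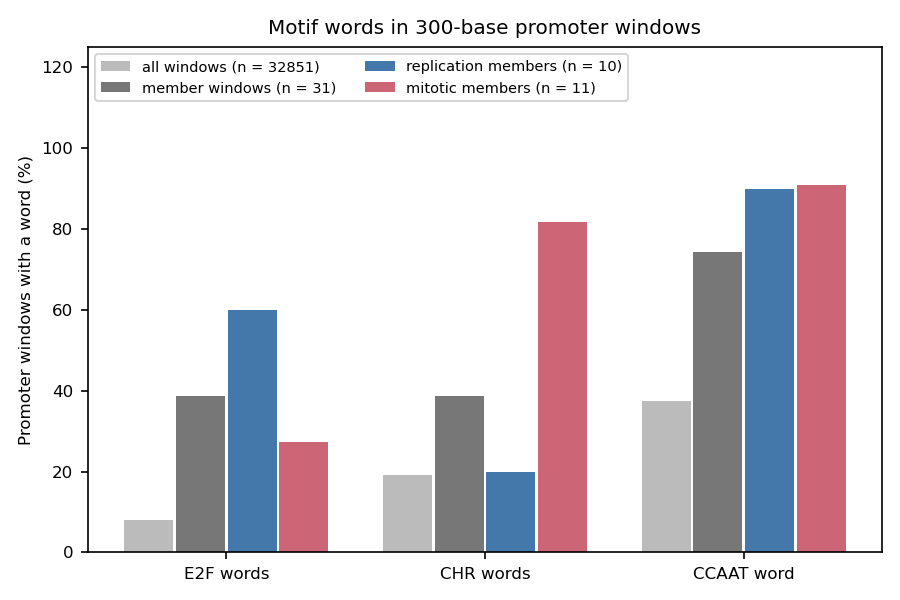
Share of 300-base promoter windows that hold at least one E2F, CHR or CCAAT word, for all windows and for the windows of all members, of replication members (MCM, clamp and nucleotide synthesis) and of mitotic members. The E2F bar is tallest for replication members (60.0%) and the CHR bar for mitotic members (81.8%).

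The following 6 windows are examples of the words in replication and mitotic genes, 5′ to 3′ on the strand of the gene, with the E2F, CHR and CCAAT words in capitals. Mcm3 (chr1:20820263-20820562, minus strand) and Mcm6 (chr1:128359656-128359955, minus strand), helicase genes, hold 3 and 5 E2F matches, some of which overlap, and no CHR word. Ccnb2 (cyclin B2, chr9:70421505-70421804, minus strand) holds 2 CHR and 3 CCAAT words and no E2F word. Cdk1 (chr10:69352863-69353162, minus strand) and Mki67 (chr7:135716330-135716629, minus strand) hold all 3 kinds. Rrm2 (chr12:24708004-24708303, plus strand), a nucleotide synthesis gene, holds a single CCAAT word and neither of the others. Mcm2 holds no E2F word and 1 CHR word, and Tyms holds none of the words. Mcm7 holds 3 E2F matches, some of which overlap, in the upstream window of its pair. Whether the words go with the RNA levels or their changes was not tested.
Mcm3: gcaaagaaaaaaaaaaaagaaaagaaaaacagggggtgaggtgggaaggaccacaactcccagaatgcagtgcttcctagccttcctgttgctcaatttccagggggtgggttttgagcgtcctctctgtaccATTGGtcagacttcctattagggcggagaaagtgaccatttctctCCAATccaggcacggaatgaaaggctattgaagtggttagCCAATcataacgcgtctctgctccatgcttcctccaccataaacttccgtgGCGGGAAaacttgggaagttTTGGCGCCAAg
Mcm6: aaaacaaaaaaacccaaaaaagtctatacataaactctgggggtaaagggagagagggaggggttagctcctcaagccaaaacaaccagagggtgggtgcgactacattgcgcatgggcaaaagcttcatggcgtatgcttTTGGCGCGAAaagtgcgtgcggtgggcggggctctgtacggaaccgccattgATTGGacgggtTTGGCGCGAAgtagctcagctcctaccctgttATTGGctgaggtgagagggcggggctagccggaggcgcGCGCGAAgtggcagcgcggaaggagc
Ccnb2: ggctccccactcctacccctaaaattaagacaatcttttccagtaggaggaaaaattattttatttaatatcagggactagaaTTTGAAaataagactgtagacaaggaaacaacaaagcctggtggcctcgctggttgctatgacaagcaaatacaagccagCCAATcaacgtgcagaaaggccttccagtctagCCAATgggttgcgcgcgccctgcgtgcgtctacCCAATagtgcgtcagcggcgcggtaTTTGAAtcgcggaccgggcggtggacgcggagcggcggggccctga
Cdk1: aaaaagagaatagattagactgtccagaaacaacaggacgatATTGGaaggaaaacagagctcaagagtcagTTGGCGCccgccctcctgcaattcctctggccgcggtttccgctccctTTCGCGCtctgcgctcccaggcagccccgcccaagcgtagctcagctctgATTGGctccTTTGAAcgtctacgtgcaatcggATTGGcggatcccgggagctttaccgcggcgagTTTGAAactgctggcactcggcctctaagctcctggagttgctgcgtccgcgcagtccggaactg
Mki67: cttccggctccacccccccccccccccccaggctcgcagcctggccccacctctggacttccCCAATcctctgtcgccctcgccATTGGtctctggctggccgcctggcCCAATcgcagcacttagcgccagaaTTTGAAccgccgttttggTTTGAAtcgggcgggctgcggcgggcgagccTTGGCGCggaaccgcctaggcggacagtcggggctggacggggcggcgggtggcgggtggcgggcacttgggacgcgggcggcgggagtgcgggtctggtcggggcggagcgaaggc
Rrm2: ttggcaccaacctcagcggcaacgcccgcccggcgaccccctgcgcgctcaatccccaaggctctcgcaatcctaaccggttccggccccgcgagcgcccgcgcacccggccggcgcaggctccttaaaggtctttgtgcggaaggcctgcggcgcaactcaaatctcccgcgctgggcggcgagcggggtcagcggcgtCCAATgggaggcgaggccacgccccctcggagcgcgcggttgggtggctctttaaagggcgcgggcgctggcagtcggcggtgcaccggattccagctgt

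The comparisons between groups were made by limma on log2(FPKM + 1), for the 9751 genes with at least 1 FPKM in at least 2 mice and at a false discovery rate of 10%. Of the 34 genes, 19 entered the test, and the other 15 were too low. A filter of this kind keeps a gene that is high in a single group, so a count over the 19 does not stand for the 34. None of the 19 was called in any comparison. The share of all genes called was itself small, at 0.308% (30 genes) for Sham against Control, 0.0513% (5 genes) for VSG against Sham and 0.287% (28 genes) for VSG against Control. At an unadjusted p under 0.05, limma gave 4 of the 19 for Sham against Control, 1 for VSG against Sham and 3 for VSG against Control, beside 11%, 4.86% and 9.6% of all genes tested. Sham mice serve in 2 of these comparisons and so do Control mice, so the comparisons are not independent of each other. In bulk liver, fewer cells of a type and less RNA per cell cannot be told apart.

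**Figure D4:**
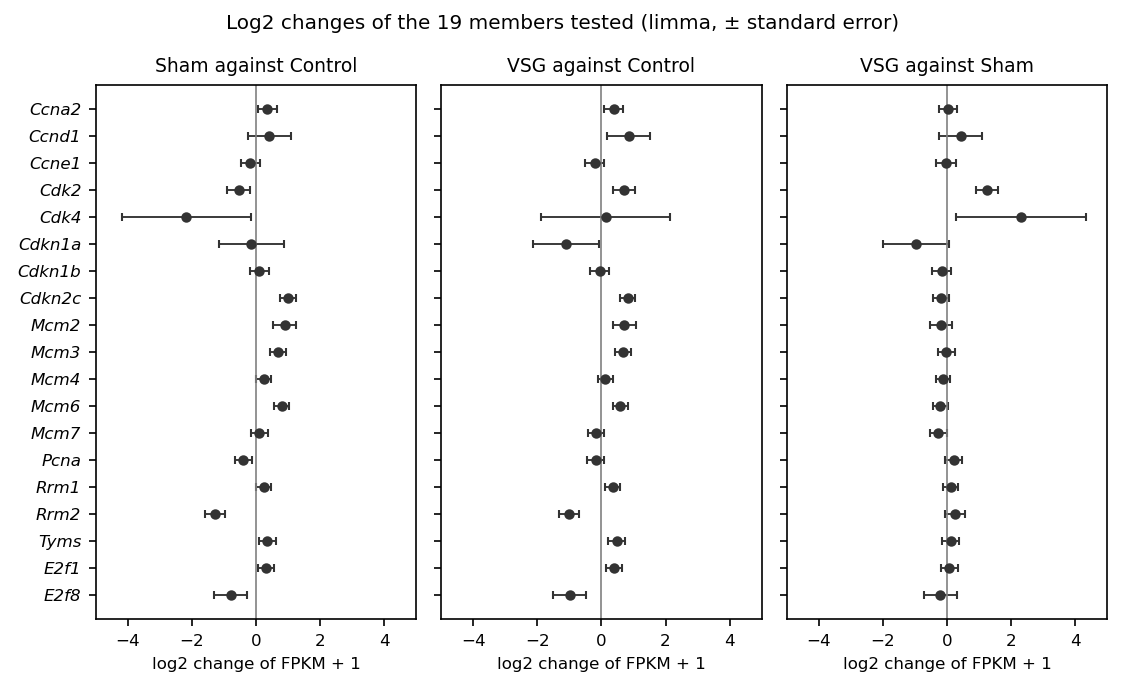
Log2 change of FPKM + 1 with its standard error for the 19 cell cycle genes tested, for each of the 3 comparisons. Rrm2 (-1.28) and Cdkn2c (1.01) stand furthest from 0 in units of their error for Sham against Control, Cdk2 (1.25) for VSG against Sham, and Cdk4 has the widest error bars.

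The MCM genes, whose products form the replicative helicase, separated the mice of the 2 diets in 5 of 6 cases by the listed FPKM. None of those tested was called. Mcm2 (chr6:88833469-88848774, mm9) was at 0.501 and 0.615 FPKM in Control, 1.91 and 1.87 FPKM in Sham and 2.44 and 0.907 FPKM in VSG mice. Mcm3 (chr1:20793055-20810359) was at 0.552 and 0.521 FPKM in Control, 1.42 and 1.53 FPKM in Sham and 1.79 and 1.15 FPKM in VSG mice. Mcm6 (chr1:130228168-130256233) was at 0.538 and 0.735 FPKM in Control, 1.96 and 1.76 FPKM in Sham and 1.63 and 1.30 FPKM in VSG mice. For each of these 3 genes all high-fat mice were above both Control mice, while Sham and VSG overlapped for Mcm2 and Mcm3 but not for Mcm6. Of all 17107 genes above 0 in any mouse, 15.1% had all high-fat mice above both Control mice.

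Mcm5 was lower than the others, at 0.317 and 0.295 FPKM in Control, 0.798 and 0.939 FPKM in Sham and 0.734 and 0.661 FPKM in VSG mice, and was not tested. Mcm4 differed less, at 0.802 and 0.950 FPKM in Control, 1.09 and 1.33 FPKM in Sham and 1.06 and 1.01 FPKM in VSG mice. Both again had every high-fat mouse above both Control mice as listed. After median-ratio scaling, which set the mice to a common level, Mcm4 in VSG mouse 2 lay below Control mouse 2. The Mcm5 value of VSG mouse 1 came wholly from a transcript listed at 0 in every other mouse. The other Mcm5 transcript, higher on average, was at 0 in VSG mouse 1, so by it alone Mcm5 did not separate the diets. Mcm7, the most highly expressed of the 6 and the host of Mir25 and Mir93, was at 4.39 and 4.77 FPKM in Control, 4.75 and 5.20 FPKM in Sham and 4.95 and 3.13 FPKM in VSG mice, and its groups overlapped. The sum of the 6 was 7.10 and 7.88 FPKM in Control, 11.9 and 12.6 FPKM in Sham and 12.6 and 8.16 FPKM in VSG mice, with VSG mouse 2 close to the Control mice.

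On the log2(FPKM + 1) scale, the limma change of Sham against Control was 0.81 ± 0.24 (SE, adjusted p = 0.372) for Mcm6, 0.89 ± 0.35 (adjusted p = 0.456) for Mcm2 and 0.69 ± 0.25 (adjusted p = 0.430) for Mcm3. The ratio of mean FPKM, which the added 1 does not compress, was 2.91 for Mcm6, 3.39 for Mcm2, 2.75 for Mcm3, 2.84 for Mcm5, 1.38 for Mcm4 and 1.09 for Mcm7. For VSG against Control the same ratios were 2.31, 3.0, 2.74, 2.28, 1.18 and 0.883, and the smallest adjusted p of the 5 tested was 0.508, for Mcm3. Between VSG and Sham the log2 changes lay between -0.27 (Mcm7) and -0.01 (Mcm3), each within about its standard error.

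**Figure D5:**
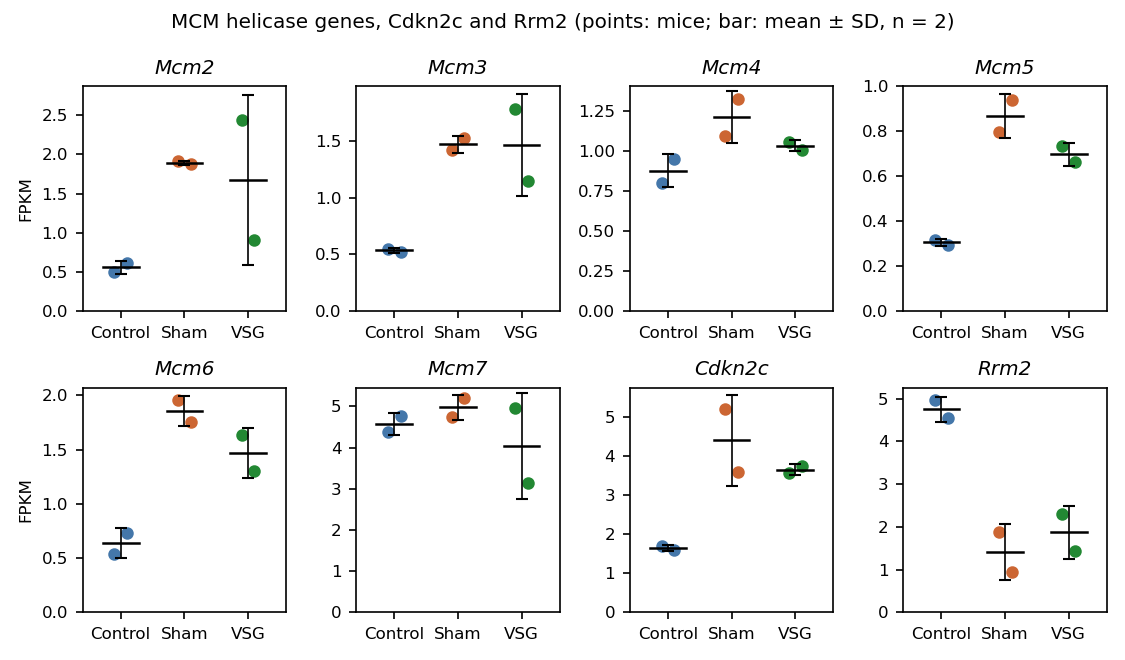
FPKM of the 6 MCM genes, Cdkn2c and Rrm2 in each mouse (points), with the mean and SD of each group of 2 mice; each panel starts at 0. Sham and VSG mice lie above both Control mice for Mcm2 to Mcm6 and Cdkn2c, and below them for Rrm2.

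The clamp and nucleotide synthesis genes lay on both sides of Control. Rrm2 (chr12:25393106-25399011, mm9), the small subunit of ribonucleotide reductase that makes deoxynucleotides, was at 4.96 and 4.54 FPKM in Control, 1.87 and 0.945 FPKM in Sham and 2.31 and 1.43 FPKM in VSG mice. Rrm1, its large subunit, was at 1.18 and 1.51 FPKM in Control, 1.66 and 1.84 FPKM in Sham and 2.02 and 1.93 FPKM in VSG mice. All high-fat mice were therefore below both Control mice for Rrm2 and above them for Rrm1. The limma change of Rrm2 was -1.28 ± 0.31 for Sham against Control (unadjusted p = 0.00907, adjusted p = 0.312) and -1.02 ± 0.31 for VSG against Control (adjusted p = 0.454), the smallest adjusted p among the 19 genes in both comparisons.

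Tyms, thymidylate synthase, was at 3.12 and 3.07 FPKM in Control, 5.42 and 3.28 FPKM in Sham and 4.81 and 4.57 FPKM in VSG mice, with every high-fat mouse above both Control mice. Pcna was the most highly expressed of the 34 genes, at 24.4 and 23.8 FPKM in Control, 22.4 and 14.7 FPKM in Sham and 19.8 and 22.6 FPKM in VSG mice. Every high-fat mouse was below both Control mice for Pcna, yet its change was -0.39 ± 0.26 (adjusted p = 0.620) for Sham and -0.18 ± 0.26 (adjusted p = 0.858) for VSG against Control.

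Of the CDK inhibitors, Cdkn2c separated the diets and the others did not. Cdkn2c (p18, an inhibitor of CDK4 and CDK6, chr4:109333481-109339794 in mm9) was at 1.70 and 1.60 FPKM in Control, 5.21 and 3.58 FPKM in Sham and 3.56 and 3.75 FPKM in VSG mice. Both high-fat groups were above Control and overlapped each other. The limma change was 1.01 ± 0.25 for Sham against Control (unadjusted p = 0.00974, adjusted p = 0.321) and 0.81 ± 0.25 for VSG against Control (adjusted p = 0.456). Cdkn1a (p21, a p53 target) ranged most between mice of a group, at 7.20 and 12.6 FPKM in Control, 4.03 and 17.1 FPKM in Sham and 10.5 and 1.08 FPKM in VSG mice. Cdkn1b (p27) varied less, at 4.71 and 6.48 FPKM in Control, 7.65 and 4.71 FPKM in Sham and 5.23 and 5.35 FPKM in VSG mice. Neither gene separated any pair of groups.

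Among the cyclins and CDKs, Cdk2, the partner of cyclins E and A, had the smallest p for VSG against Sham. It was at 1.69 and 3.58 FPKM in Control, 1.04 and 1.84 FPKM in Sham and 4.50 and 4.98 FPKM in VSG mice. Both VSG mice were above all other mice, and Sham overlapped Control. Each Sham mouse and Control mouse 1 had 1 of the 2 Cdk2 transcripts listed at 0, while both transcripts were above 0 in the VSG mice, so the sums rest in part on such zeros. The change of VSG against Sham was 1.25 ± 0.35 in limma (unadjusted p = 0.0166), and it did not pass the adjustment (adjusted p = 0.930). Ccna2 (cyclin A2) was at 0.730 and 0.731 FPKM in Control, 1.64 and 0.843 FPKM in Sham and 1.50 and 1.04 FPKM in VSG mice, with all high-fat mice above Control but the Sham mice far apart. Ccne1 (cyclin E1) was at 1.79 and 0.870 FPKM in Control, 0.893 and 1.15 FPKM in Sham and 1.11 and 0.853 FPKM in VSG mice, without separation of the groups. For Ccnd1, Sham mouse 2 was the highest and Sham mouse 1 the lowest of the 6 mice, and no comparison passed (largest change 0.85 ± 0.67, VSG against Control, adjusted p = 0.732).

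The E2F genes went different ways. E2f1, an activator of S phase genes, was at 0.928 and 0.712 FPKM in Control, 1.49 and 1.05 FPKM in Sham and 1.64 and 1.15 FPKM in VSG mice, with every high-fat mouse above both Control mice. E2f8, a repressor of the family that is known for its part in hepatocyte polyploidy, was at 6.67 and 12.0 FPKM in Control, 4.89 and 4.71 FPKM in Sham and 6.92 and 2.20 FPKM in VSG mice. Both Sham mice were below both Control mice for E2f8, while VSG mouse 1 lay between the Control mice. After median-ratio scaling, every high-fat mouse was below both Control mice for E2f8. Its mean of 6.24 FPKM stood well above that of E2f1 (1.16 FPKM) and Foxm1 (0.104 FPKM), and its change was -0.79 ± 0.52 for Sham (adjusted p = 0.614) and -0.99 ± 0.52 for VSG (adjusted p = 0.635) against Control. Foxm1, the activator of mitotic genes, was at 0.0424 and 0.0407 FPKM in Control, 0.201 and 0.145 FPKM in Sham and 0.141 and 0.0552 FPKM in VSG mice, which came to about 3.86 to 24.9 reads a mouse.

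The remaining low genes are given by their ranges. Top2a, the topoisomerase that untangles replicated chromosomes, was at 0.0492 and 0.127 FPKM in Control, 0.385 and 0.168 FPKM in Sham and 0.244 and 0.260 FPKM in VSG mice. Ccnb1 (cyclin B1) was at 0.0334 and 0.0802 FPKM in Control, 0.198 and 0.128 FPKM in Sham and 0.118 and 0.109 FPKM in VSG mice. Both genes had all high-fat mice above Control, as did the checkpoint kinases Bub1 and Bub1b and the mitotic kinase Plk1. Cdk1, the kinase that drives mitosis, overlapped between all groups, at 0.279 and 0.351 FPKM in Control, 0.471 and 0.193 FPKM in Sham and 0.349 and 0.303 FPKM in VSG mice. Ccnb2, Aurka, Birc5 and Aurkb, the kinase of the passenger complex, did not separate the diets either.

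Counted over the 34 genes, all 4 high-fat mice were above both Control mice for 17 genes, beside 15.1% of the 17107 genes above 0 in any mouse, and below them for 2 genes (Rrm2 and Pcna), beside 7.9%. This count was chosen after the values were seen. By role it held for 5 of the 6 MCM genes, both proliferation markers, 3 of the 7 mitotic kinases and checkpoint genes, 2 of the 6 cyclins, 2 of the 4 clamp and nucleotide synthesis genes, 2 of the 3 transcription factors and 1 of the 3 CDK inhibitors, and for none of the 3 CDKs. When a median-ratio scaling set the mice to a common level, the counts were 15 above and 3 below, beside 11.1% and 12.7% of all genes. Within the 13 genes under 1 FPKM that were above 0 the count was 8, beside 12.8% of such genes, and within the 19 at 1 FPKM or more it was 9, beside 17.1%. The contrast of both high-fat groups against Control, also added after the values were seen, called none of the 19 in limma (smallest adjusted p = 0.264, for Rrm2), beside 0.42% of the genes tested, with 5 of the 19 at an unadjusted p under 0.05 beside 11.8%.

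The median log2 change of the 34 genes, with those at 0 counted as no change, was 0.14 for Sham against Control, 0.11 for VSG against Control and -0.03 for VSG against Sham. Without the genes at 0 in all mice these medians were 0.15, 0.12 and -0.045, beside 0.0082, 0.03 and 0.02 over the 17107 genes above 0 and 0.03, 0.125 and 0.08 over the 9751 genes tested. For VSG against Control the member median of 0.12 lay near the 0.125 of the genes tested, but these sets are not alike. The members include low genes that were not tested, whose log2 changes are compressed. Set beside the genes above 0, a limit that also holds for the members in this median, the member median was 0.12 beside 0.03. The members were taken from a list of names, so these sets differ too. With median-ratio scaling the median of the 34 genes was 0.0602 in place of 0.11 for this comparison. That of the genes tested was then -0.0397 in place of 0.125. Of the 34, 24 were higher and 8 lower in Sham than in Control mice, beside 52.9% and 43.6% of the 17107 genes. In VSG against Control mice 23 were higher and 9 lower, beside 60.8% and 36.2%, and in VSG against Sham mice 11 were higher and 21 lower, beside 57.6% and 40.6%. None of these counts was tested. Under median-ratio scaling no member was called either.

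Other genes of the same pathways were examined by lists that held none of the 34, and limma called none of their genes in any comparison. Of 46 other DNA replication genes, 24 were tested. In limma 2 had an unadjusted p under 0.05 for Sham against Control and 4 for VSG against Control, beside 11% and 9.6% of all genes tested. All high-fat mice were above both Control mice for 16 of the 46, beside 15.1% of all genes. They included Fen1, the flap endonuclease of lagging-strand synthesis, at 0.926 and 0.868 FPKM in Control, 2.06 and 1.89 FPKM in Sham and 1.91 and 1.52 FPKM in VSG mice (0.58 ± 0.20 for both high-fat groups against Control, adjusted p = 0.386). Ung, the uracil-DNA glycosylase, was the single gene of the list with all high-fat mice below Control, at 7.43 and 7.12 FPKM in Control, 6.55 and 4.79 FPKM in Sham and 3.21 and 4.15 FPKM in VSG mice (adjusted p = 0.443 for VSG against Control). Prim1, the small subunit of primase, was listed at 1.02 and 1.64 FPKM in the Sham mice and at 0 in the other 4.

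Of 48 other mitosis genes, 13 were tested, and in limma none had an unadjusted p under 0.05 in any of the 3 comparisons. Over all genes tested the shares were 11% for Sham against Control, 4.86% for VSG against Sham and 9.6% for VSG against Control. All high-fat mice were above both Control mice for 10 of the 48 and below them for 1 (Smc4), beside 15.1% and 7.9% of all genes. Cks2, a small CDK-binding protein, was at 13.3 and 13.6 FPKM in Control, 24.2 and 15.2 FPKM in Sham and 18.7 and 25.5 FPKM in VSG mice (adjusted p = 0.588 for VSG against Control). Ube2c, the ubiquitin-conjugating enzyme of the anaphase-promoting complex, was at 0.504 and 0.709 FPKM in Control, 1.71 and 1.04 FPKM in Sham and 0.899 and 0.998 FPKM in VSG mice (adjusted p = 0.518 for Sham against Control). Spc24, a kinetochore protein, was highest in VSG mouse 2 at 8.97 FPKM, and its change of VSG against Sham was 0.84 ± 0.44 (adjusted p = 0.941).

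Of 31 other genes of G1 control, 19 were tested. In limma none had an unadjusted p under 0.05 for Sham against Control, beside 11% of all genes tested. For VSG against Sham and for VSG against Control 1 did in each, beside 4.86% and 9.6%. All high-fat mice were above both Control mice for 4 of the 31 and below them for 3, beside 15.1% and 7.9% of all genes. Myc, a transcription factor that promotes growth and entry into the cycle, was at 3.60 and 2.56 FPKM in Control, 1.45 and 3.16 FPKM in Sham and 0.793 and 0.661 FPKM in VSG mice. Both VSG mice were below all other mice for Myc (-1.23 ± 0.34 against Control, adjusted p = 0.405, and -0.89 ± 0.34 against Sham, adjusted p = 0.941). Rbbp4, a histone-binding partner of the retinoblastoma protein, had the smallest p of the list for Sham against Control (-0.47 ± 0.24, adjusted p = 0.546).

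The 16 p53 targets other than Cdkn1a had a median log2 change of 0.30 for Sham against Control and 0.31 for VSG against Control, 11 were tested with 3 and 1 at an unadjusted p under 0.05, beside 11% and 9.6% of the genes tested, and 6 of the 16 had all high-fat mice above both Control mice, beside 15.1% of all genes. Trp53inp1, a p53-induced stress protein, went the other way, at 13.7 and 20.6 FPKM in Control, 4.63 and 9.56 FPKM in Sham and 10.5 and 9.09 FPKM in VSG mice. Bax, an effector of apoptosis, was at 18.9 and 15.3 FPKM in Control, 36.0 and 29.3 FPKM in Sham and 31.4 and 21.9 FPKM in VSG mice (0.89 ± 0.27 for Sham against Control, adjusted p = 0.386). Ccng1 (cyclin G1) was at 6.18 and 5.23 FPKM in Control, 6.61 and 9.23 FPKM in Sham and 9.90 and 9.38 FPKM in VSG mice (adjusted p = 0.496 for VSG against Control). Fas, a death receptor, was higher in Sham than in any other mouse, at 22.9 and 19.9 FPKM, beside 13.2 to 14.7 FPKM in Control and VSG mice (-0.64 ± 0.20 for VSG against Sham, adjusted p = 0.941). Cdkn1a itself overlapped between all groups.

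Marker sums of neutrophils, of Kupffer cells and macrophages, and of B and T cells were higher in every high-fat mouse than in both Control mice. Their part in the results above was not tested. Limma tested 2 of 8 neutrophil, 8 of 8 Kupffer cell and macrophage and 0 of 10 B and T cell markers, and called none. The 8 neutrophil markers summed to 4.91 to 12.4 FPKM in Control, 41.7 to 45.6 FPKM in Sham and 16.4 to 21.9 FPKM in VSG mice. Of these, 7 had all high-fat mice above both Control mice, and Ly6g was listed at 0 in every mouse. The mean was under 1 FPKM for 6 of the 8, so the sum rested mainly on S100a8 and S100a9. The 8 Kupffer cell and macrophage markers summed to 14.0 to 18.7, 41.0 to 42.1 and 40.7 to 162 FPKM, with 4 of the 8 above in this way and none listed at 0 in all mice. The 10 B and T cell markers summed to 0.922 to 1.04, 1.11 to 2.78 and 2.61 to 5.67 FPKM, with 4 of the 10 above. The share of all genes above in this way was 15.1%. Sums of the 6 erythroid markers (236 to 285, 121 to 309 and 353 to 1420 FPKM), the 5 stellate cell markers (4.41 to 4.59, 1.70 to 3.31 and 4.19 to 7.48 FPKM), the 6 sinusoidal endothelial markers (11.8 to 34.4, 4.92 to 6.18 and 21.8 to 21.9 FPKM) and the 5 cholangiocyte markers (2.24 to 3.38, 2.54 to 4.58 and 1.63 to 2.01 FPKM) did not place all high-fat mice above Control. Tat, tyrosine aminotransferase of hepatocytes, was the single marker that limma called, lower in Sham (-2.84 ± 0.24, adjusted p = 0.0435) and in VSG (-2.47 ± 0.24, adjusted p = 0.0661) than in Control mice.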

How the data were processed

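RNA-seq and FAIRE-seq of 2 livers a group (Control, Sham, VSG) were analysed from the deposited tables. The authors aligned RNA reads to mm9 using TopHat2 and obtained one FPKM value per RefSeq transcript and mouse from Cufflinks. The labels name poly(A) enrichment and the methods of the study depletion of ribosomal RNA. The deposited comparison tables hold fold changes and p-values, which were not used, and mean normalized counts, which are printed as the authors' mean. Peak signal in the deposited FAIRE lists is the F-seq value, and each list combines the 2 mice of a group. The deposited lists of variable sites were not used.

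Of 34933 transcripts, 34046 matched a gene name, and FPKM was summed per gene. Groups were compared in R 4.3.3 by limma 3.58.1, with a mean-variance trend, on log2(FPKM + 1) of all 6 mice, for genes that reached 1 FPKM in 2 or more mice, with Benjamini-Hochberg adjustment over all genes tested and an FDR of 10%. The limma fit was tested on simulated data, with changes planted only in genes of higher expression than many of the members. That run does not show how the fit performs at the level of those members. The limma p-values come from a fit to all 6 mice. They set the difference between groups against the spread between mice of a group, pooled over the 3 groups. Depth was estimated from the steps of low FPKM values. Peaks were placed by NCBIM37 start sites, and promoter windows are of GRCm38.p6. Figures used matplotlib 3.10.9 and Python 3.11.15.

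The members and lists were chosen with earlier results of these data known. All 34 members are described, and of each other list the gene with the smallest unadjusted p in each comparison. Cell type markers are given as sums. Alternatives were another pseudocount, filter, scaling and variance model, the highest transcript, a replicate block, and leaving out each mouse.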

Additional observations from a re-analysis of the deposited data

How the results depend on the processing

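No cell cycle gene was called in any comparison under any alternative run, and the smallest adjusted p in limma was 0.144. Over 76 gene and comparison pairs and 1037 alternatives, the sign changed 40 times, in 27 of the pairs. The counts of all genes called were less stable. For Sham against Control, 30 genes became 62 without the filter on low values, and 0 to 169 when a mouse was left out, with 0 without either Control mouse, 57 without Sham mouse 1 and 169 without Sham mouse 2. For VSG against Sham, 5 became 8 with a pseudocount of 0.1, 0 with only the 2 groups compared in the fit, and 0 to 77 when a mouse was left out, with 0 without either VSG mouse, 9 without either Control mouse, 34 without Sham mouse 1 and 77 without Sham mouse 2. For VSG against Control, 28 became 0 to 39, with 0 without either Control mouse, 10 without VSG mouse 1 and 5 without VSG mouse 2. For both high-fat groups against Control, 41 became 0 to 75, with 0 without either Control mouse, 75 without Sham mouse 2, 19 without VSG mouse 1 and 22 without VSG mouse 2. The cause was not tested. With a group reduced to 1 mouse, that mouse is assumed to vary like the others.

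With a pseudocount of 0.1, which compresses low values less, the median log2 change of the 34 genes was 0.425 for Sham against Control, 0.456 for VSG against Control and 0.479 for both high-fat groups against Control. The median of all genes at this pseudocount is not given, so these values do not show a change particular to the members. With the pseudocount of 1, the median for VSG against Sham ran from -0.102 (without Sham mouse 2) to 0.0199 when a mouse was left out. Median-ratio scaling shifted the median of all genes tested by -0.165 for VSG against Control and -0.12 for both high-fat groups. Between 15 and 16 of the 34 were under 1 FPKM when a mouse was left out, and 17 to 19 had all high-fat mice above Control, beside 18.4% to 23.2% of all genes. With the highest transcript of each gene 14 did, beside 14% of all genes, and with median-ratio scaling 15, beside 11.1%. These counts were made after the values were seen.

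The labels give replicate numbers but do not say whether these pair the mice. Over the genes tested, deviations of same-numbered mice correlated at 0.107 (Control and Sham), 0.0589 (Control and VSG) and 0.0302 (Sham and VSG). Such weak correlations cannot settle whether the mice were paired. With the replicate number as a block, 9 genes were called for Sham against Control, 0 for VSG against Sham, 10 for VSG against Control and 9 for both high-fat groups, with 0 cell cycle genes.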
